A study of Homo sapiens with 4 samples.

Results

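The kynurenine pathway, the main route by which cells break down tryptophan, was examined through 10 genes, TDO2, IDO1, AFMID, KMO, KYNU, HAAO, ACMSD, QPRT, ALDH8A1 and CCBL1, of the 18398 rows that each library holds. AFMID and ALDH8A1 were selected on their measured values, because both were lower with CDCA8siRNA in both cell lines, and the other members are the rest of the pathway, taken by function. HAAO and CCBL1 also had lower values in both lines but were not picked for it. Huh1 and Huh7, both established lines of human hepatocellular carcinoma, had been transfected with 15 nM of either NCsiRNA, a control that targets no endogenous transcript, or CDCA8-1siRNA, which targets the mitotic gene CDCA8, and RNA sequencing followed at 48 h. All 4 groups, Huh1 with NCsiRNA, Huh1 with CDCA8siRNA, Huh7 with NCsiRNA and Huh7 with CDCA8siRNA, received siRNA and cationic lipid, and each is 1 library of cultured cells with no replicate. Values are in RPKM, that is, read numbers divided by transcript length in kilobases and by library depth, which allows for length and depth only. Their sum still ran from 416518 (Huh7 with CDCA8siRNA) to 464167 RPKM (Huh1 with NCsiRNA). The depth behind the values came to 12197606 to 13384836 reads per library, as read from the spacing of low values. CDCA8 itself went in Huh1 from 24.1 to 5.86 RPKM and in Huh7 from 51.5 to 7.36.

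In this pathway, TDO2 (the dioxygenase typical of hepatocytes) or IDO1 (its interferon-inducible counterpart) opens the indole ring of tryptophan, and AFMID hydrolyses the product, formylkynurenine, to kynurenine. CCBL1, a kynurenine aminotransferase, turns kynurenine into kynurenic acid, whereas KMO hydroxylates it and KYNU and HAAO carry the product on to an unstable semialdehyde. That compound either closes spontaneously to quinolinic acid, which QPRT feeds into the synthesis of NAD, or is decarboxylated by ACMSD and oxidised by ALDH8A1 towards complete breakdown. The liver is the organ best known for running the whole route.

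RefSeq windows reaching from 250 bases before to 50 bases after the transcript start (GRCh38.p14) matched 8 of the 10 members by symbol, and IDO1 and ACMSD had no entry. Those of AFMID (chr17:78187112-78187411, plus strand) and ALDH8A1 (chr6:134950052-134950351, minus strand) are shown because these genes define the pair with lower values in both lines, and that of KYNU (chr2:142877414-142877713, plus strand) because its difference between the siRNAs varied most between the cell lines. Capitals mark any match, on either strand, to the motifs searched.
AFMID: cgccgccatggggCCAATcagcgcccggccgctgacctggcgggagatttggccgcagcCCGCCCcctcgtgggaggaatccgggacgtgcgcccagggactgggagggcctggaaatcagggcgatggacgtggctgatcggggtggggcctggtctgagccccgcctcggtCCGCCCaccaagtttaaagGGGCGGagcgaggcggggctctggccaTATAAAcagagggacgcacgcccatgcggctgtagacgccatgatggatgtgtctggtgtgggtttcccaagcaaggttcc
ALDH8A1: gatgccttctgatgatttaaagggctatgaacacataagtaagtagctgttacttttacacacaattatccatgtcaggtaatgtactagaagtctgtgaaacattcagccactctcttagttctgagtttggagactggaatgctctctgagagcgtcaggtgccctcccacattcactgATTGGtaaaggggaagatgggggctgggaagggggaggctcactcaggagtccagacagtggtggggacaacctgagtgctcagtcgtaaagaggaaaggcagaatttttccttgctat
KYNU: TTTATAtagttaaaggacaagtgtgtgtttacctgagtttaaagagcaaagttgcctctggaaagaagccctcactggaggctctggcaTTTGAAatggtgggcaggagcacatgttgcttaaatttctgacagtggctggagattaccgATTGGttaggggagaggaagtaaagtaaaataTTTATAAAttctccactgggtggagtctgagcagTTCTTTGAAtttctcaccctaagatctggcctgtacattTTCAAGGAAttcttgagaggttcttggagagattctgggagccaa

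The motifs searched were the CCAAT box (CCAAT), an E2F-like site (TTTNNCGC), a CHR-like site (TTTGAA), the GC box (GGGCGG), the TATA box (TATAAA), a GAS-like site (TTCNNNGAA) and an HNF4-like site (CAAAGTCCA). The AFMID window was GC-rich (67.7% G or C) and held 3 GC boxes, which occur in 45% of the 35116 windows of this length, as well as 1 TATA box 31 bases before the start, found in 11.5% of windows. The ALDH8A1 window had 46.7% G or C and a single match, an inverted CCAAT box 69 bases before the start. Both windows therefore held a CCAAT box, as did 5 of the 8 members' windows and 34.6% of all windows. The KYNU window held 3 matches to the TATA box, of which a pair overlapped each other. It also had 2 CHR-like matches (in 15.2% of windows) and 2 GAS-like matches (in 7.66%), and the CHR-like match 31 bases before the start overlapped a GAS-like match. The E2F-like letters, present in 6.89% of windows, were in none of the 8 members' windows, and the HNF4-like letters, present in 0.384%, were in that of HAAO only. These are matches of letters, not measured binding.

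The level of the members spanned a wide range, and the enzymes of the first step were near its lower end. IDO1 was the lowest gene in 3 libraries, at 0.408 and 0.562 RPKM in Huh1 and 0.498 and 0.578 RPKM in Huh7 (NCsiRNA first), which is about 11 to 16 reads. TDO2 was at 1.24 and 2.06 RPKM in Huh1 and 0.630 and 1.06 RPKM in Huh7, about 13 to 46 reads. Hence both enzymes of the opening step sat near the minimum of 1 RPKM used here, and TDO2 was above IDO1 in each library. At the other end, QPRT was at 84.9 and 81.0 RPKM in Huh1 and 46.8 and 54.4 RPKM in Huh7, higher than at least 90.8% of all rows in each library. KYNU was the highest member in Huh1, at 175 and 180 RPKM, but was at 8.08 and 21.5 RPKM in Huh7. In the control library of Huh1 the order from high to low was KYNU, QPRT, AFMID, ACMSD, CCBL1, ALDH8A1, KMO, HAAO, TDO2 and IDO1. Of these neighbours, CCBL1 at 10.5, ALDH8A1 at 10.2 and KMO at 9.51 RPKM lay close together, and no replicates exist to separate them. In the control library of Huh7 the order was QPRT, AFMID, KYNU, KMO, ALDH8A1, HAAO, CCBL1, TDO2, IDO1 and ACMSD, and KYNU at 8.08, KMO at 7.31, ALDH8A1 at 7.00 and HAAO at 6.45 RPKM were similarly close. Because the RNA came from whole cultures, fewer cells expressing a gene and less RNA per cell cannot be told apart.

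**Figure D1:**
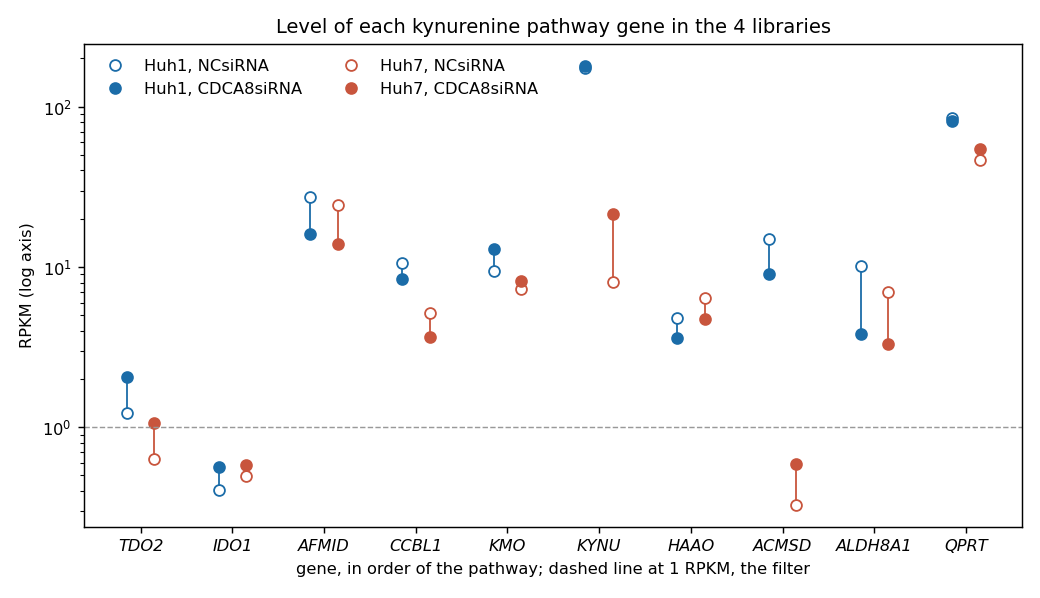
RPKM (log axis) of the 10 members, open circles for NCsiRNA and filled circles for CDCA8siRNA, 1 library per circle, blue for Huh1 and red for Huh7. KYNU and ACMSD are far apart between the cell lines, IDO1 lies under the 1 RPKM line in all 4 libraries, and the filled circles of AFMID and ALDH8A1 lie below the open ones in both lines.

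AFMID and ALDH8A1 are given as a description, without a test, since the siRNA comparison chose them. AFMID was at 27.3 RPKM with NCsiRNA and 16.1 with CDCA8siRNA in Huh1, and at 24.2 and 13.9 RPKM in Huh7. Its CDCA8siRNA libraries were both below its NCsiRNA libraries, and the share of the control value left was 58.9% in Huh1 and 57.6% in Huh7. On the log2(RPKM + 1) scale, on which low genes show smaller changes, AFMID differed by -0.73 in Huh1 and -0.75 in Huh7, with an SD from read counting alone of 0.090 and 0.099. The difference between these changes, -0.03, was smaller than its own counting SD of 0.134. ALDH8A1 was at 10.2 and 3.80 RPKM in Huh1 and at 7.00 and 3.31 RPKM in Huh7. It kept 37.4% of the control value in Huh1 and 47.3% in Huh7, with both CDCA8siRNA libraries below both controls. Its log2 differences were -1.22 (counting SD 0.123) and -0.89 (counting SD 0.138). With a pseudocount of 0.1 RPKM in place of 1, the Huh7 difference became -1.06, and with quantile normalization -1.04, both past 2-fold. Over both lines the log2 difference was -0.74 for AFMID and -1.05 for ALDH8A1, given without a standard error. The direction in each line was fixed by the choice of these genes.

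A 2-fold difference, the fold threshold of the study, here on the log2(RPKM + 1) scale, was used as a call within each line. In Huh1, 9 members passed the filter of at least 1 RPKM in 1 of the pair of libraries, of which 0 were called higher, against 0.32% of all genes passing, and 1, ALDH8A1, lower, against 0.174%. In Huh7, 8 members passed, of which 1, KYNU, was called higher, against 0.873%, and 0 lower, against 0.7%. ALDH8A1 was under 2-fold in Huh7 only because of the pseudocount of 1 RPKM, as it kept 47.3% of its control value, and the count of lower members becomes 1 with a pseudocount of 0.1 RPKM or with quantile normalization. Nothing is read from the counts that hold ALDH8A1.

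Several hepatocyte markers were lower together with these genes. In the limma fit over both lines, 5 of the 9 markers fell with CDCA8siRNA and 0 rose, beside 4.21% and 6.03% of all genes, with a median log2 difference of -0.40. HNF4A, a transcription factor that maintains hepatocyte identity, fell in Huh1 from 86.1 to 59.1 RPKM and in Huh7 from 55.4 to 38.8 (limma, adjusted p = 0.00878 after Benjamini-Hochberg correction). ALB, APOA1, SERPINA1 and TF, which encode secreted plasma proteins, were the others. The summed level of the 9 markers went in Huh1 from 4853 to 3755 RPKM and in Huh7 from 3026 to 2134. Their part in the lower values of AFMID and ALDH8A1 was not tested.

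**Figure D2:**
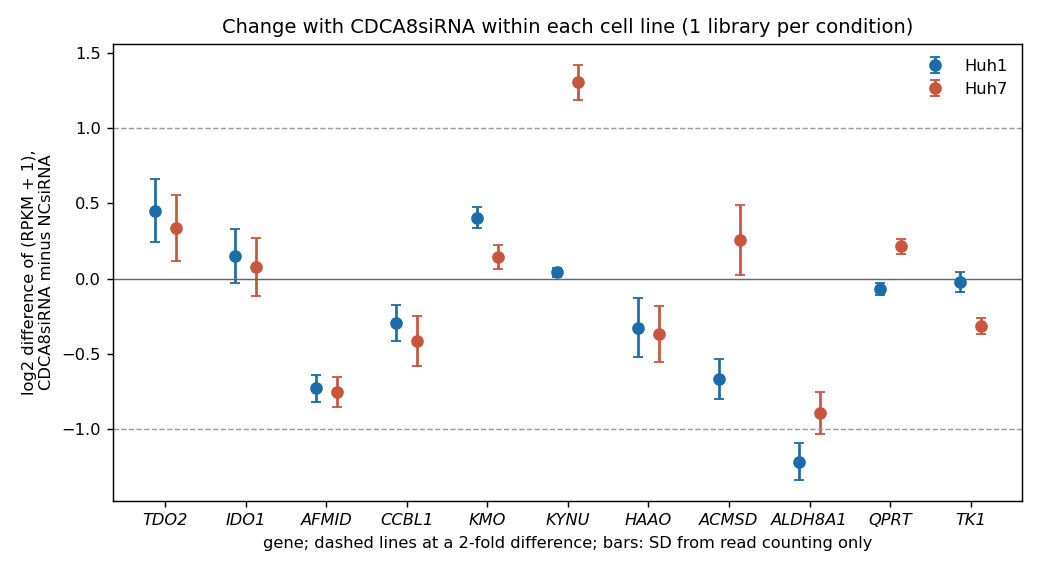
Difference of log2(RPKM + 1), CDCA8siRNA minus NCsiRNA, for the 10 members and TK1, blue for Huh1 and red for Huh7, with bars of 1 SD from read counting and dashed lines at 2-fold. AFMID and ALDH8A1 lie near or past -0.73 in both lines, whereas KYNU is at 0.04 in Huh1 and 1.31 in Huh7.

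The other members were tested with limma over all 4 libraries, the cell line being a covariate, which tests the change common to Huh1 and Huh7. Of all genes fitted, 6.03% were called higher and 4.21% lower with CDCA8siRNA. Among the 6 members outside the chosen pair that could be fitted, 0 had an adjusted p-value under 0.05 by limma. At an unadjusted p-value under 0.05 the count was 5 of 6, against 26.0% of all genes fitted. Those 5 include TDO2, whose direction in Huh7 was fixed by the filter, so nothing is read from this count. The log2 differences of these 6 went both ways. They were 0.40 for TDO2, 0.28 for KMO, 0.67 for KYNU and 0.07 for QPRT, but -0.35 for HAAO and -0.36 for CCBL1. The median over all genes fitted was 0.03. No median over the members is given, since AFMID and ALDH8A1 were chosen for lower values.

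KYNU, which cleaves hydroxykynurenine to hydroxyanthranilate, had the siRNA difference that varied most between the lines. It was at 175 RPKM with NCsiRNA and 180 with CDCA8siRNA in Huh1, on about 4140 and 4200 reads. In Huh7 it was at 8.08 and 21.5 RPKM, on about 175 and 466 reads, a ratio of 2.65. Thus the values of KYNU differed by 0.04 on the log2 scale in Huh1 (counting SD 0.031) and by 1.31 in Huh7 (counting SD 0.116), and even the higher Huh7 library stayed far below both Huh1 libraries. The change in Huh7 exceeded that in Huh1 by 1.26, or 10.5 times its counting SD, but a test against replicates was not possible. Over both lines the log2 difference was 0.67 (limma standard error 0.225, adjusted p = 0.0941). With quantile normalization KYNU passed at an adjusted p = 0.00107 from limma, the lowest over 8 alternatives, which reached 1.00.

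Of the remaining enzymes of the main route, TDO2 and KMO had higher values with CDCA8siRNA in both lines and HAAO lower, none past the threshold. TDO2 had a ratio of 1.67 in Huh1 and 1.68 in Huh7, with a log2 difference of 0.40 over both, on at most 46 reads. In Huh7, at 0.630 and 1.06 RPKM, it passed the filter only through its CDCA8siRNA library. The filter thus fixed the direction of TDO2 in that line, and no p-value is given. IDO1 had ratios of 1.38 and 1.16 on 11 to 16 reads, differences smaller than their counting SD, and was under the filter in every library. KMO went in Huh1 from 9.51 to 12.9 RPKM and in Huh7 from 7.31 to 8.19 (log2 difference over both 0.28, standard error 0.116, adjusted p = 0.168 from limma). HAAO went in Huh1 from 4.77 to 3.60 RPKM and in Huh7 from 6.45 to 4.76, with an adjusted p = 0.102 from limma (lowest over 7 alternatives 0.0323, highest 1.00).

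CCBL1, on the branch to kynurenic acid, was lower in both lines, in Huh1 from 10.5 to 8.39 RPKM and in Huh7 from 5.20 to 3.64. Its log2 difference over both was -0.36 (standard error 0.116, limma adjusted p = 0.0862, and 0.0242 to 1.00 over 8 alternatives). QPRT, at the entry to NAD synthesis, had ratios of 0.955 in Huh1 and 1.16 in Huh7 (adjusted p = 0.679 from limma). ACMSD, at the branch point away from NAD, went from 14.9 to 9.03 RPKM in Huh1, a log2 difference of -0.67 with a counting SD of 0.133. In Huh7 it was at 0.328 and 0.587 RPKM, about 5 and 10 reads, under the filter in both libraries, so ACMSD was not fitted.

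The nearest annotated transcript starts of AFMID and TK1 lie 84 bases apart. TK1 is transcribed in the opposite direction and encodes the thymidine kinase of the S phase. TK1 was at 42.0 and 41.3 RPKM in Huh1 and at 73.2 and 58.6 RPKM in Huh7. Its log2 difference was -0.02 in Huh1 (counting SD 0.066) and -0.32 in Huh7 (counting SD 0.056), against -0.73 and -0.75 for AFMID. Over both lines TK1 had a log2 difference of -0.17 (standard error 0.0997, adjusted p = 0.325 from limma). ALDH8A1 had no such divergent neighbour within 1000 bases in GENCODE release 29. The nearest annotated starts of CCBL1 and LRRC8A, on opposite strands, lie 8 bases apart. LRRC8A, a volume-regulated anion channel subunit named here after its values were seen, had log2 differences of 0.02 in Huh1 and -0.34 in Huh7.

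Exons of other genes can also share reads with the members. On the opposite strand, 1691 exon bases of KMO overlap OPN3, an opsin gene, and the sources used here do not state whether counting used strand. OPN3, looked at after the values of KMO were seen, went in Huh1 from 26.5 to 36.1 RPKM and in Huh7 from 19.5 to 23.8. The values of KMO and OPN3 were thus higher with CDCA8siRNA in both lines, and reads of one gene counted for the other cannot be told apart. QPRT shares 572 exon bases with AC009086.2 on the same strand, and IDO1, KYNU, ACMSD and ALDH8A1 each share between 42 and 122 bases with antisense genes or a pseudogene.

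The cell lines themselves were compared in the same way, Huh7 against Huh1 with the siRNA as a covariate. This contrast was not used to choose any member. Of 12148 genes with at least 1 RPKM in any library, limma called 42.5% higher and 28.7% lower in Huh7, so a call is common here. Of the 9 members fitted, 1 was called higher and 6 lower in Huh7. The 6 include ACMSD, which entered that fit only through its Huh1 libraries and had to differ. Each line is 1 culture per siRNA, so the p-values hold no spread between repeat cultures. In both limma comparisons the 1 residual degree of freedom is how far the siRNA difference varies between the lines. The rest of the error is borrowed from other genes (prior degrees of freedom 7.48 here and 8.29 for the siRNA).

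KYNU and ACMSD stood furthest apart. KYNU was 21.6 times higher in Huh1 than in Huh7 with NCsiRNA and 8.37 times higher with CDCA8siRNA, a log2 difference of -3.64 over both siRNAs (standard error 0.234, adjusted p = 1.94e-06 from limma). ACMSD was 45.6 times higher in Huh1 with NCsiRNA and 15.4 times with CDCA8siRNA, resting on about 5 and 10 reads in Huh7 (log2 difference -3.12), and no p-value is given, as the filter fixed its direction. Huh7 minus Huh1, CCBL1 differed by -0.96 and QPRT by -0.71 on the log2 scale, with adjusted p-values of 8.99e-05 and 0.000203 from limma. In KYNU, ACMSD, CCBL1 and QPRT both Huh7 libraries were below both Huh1 libraries.

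Smaller differences were less secure. TDO2 differed by -0.51, Huh7 minus Huh1 (adjusted p = 0.0196 from limma) and KMO by -0.47 (adjusted p = 0.00587). Without the siRNA as a covariate their adjusted p-values from limma became 0.101 and 0.0728, each the highest over the alternatives, with lowest values of 0.000254 and 0.000295. HAAO was the member higher in Huh7, by 0.35 (adjusted p = 0.0281 from limma), while the median of all genes was itself 0.14 higher. Quantile normalization moved that median by -0.13 and left HAAO at 0.14, with an adjusted p = 0.358 from limma, and HAAO passed under 4 of 8 alternatives (adjusted p 0.0254 to 0.358). AFMID differed by -0.18 between the lines (adjusted p = 0.123 from limma) and ALDH8A1 by -0.32 (adjusted p = 0.0519), and ALDH8A1 passed under 2 of 8 alternatives (0.00203 to 0.606). AFMID passed with quantile normalization alone (adjusted p 0.0275 to 0.676 from limma over 8 alternatives). IDO1 was not fitted.

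**Figure D3:**
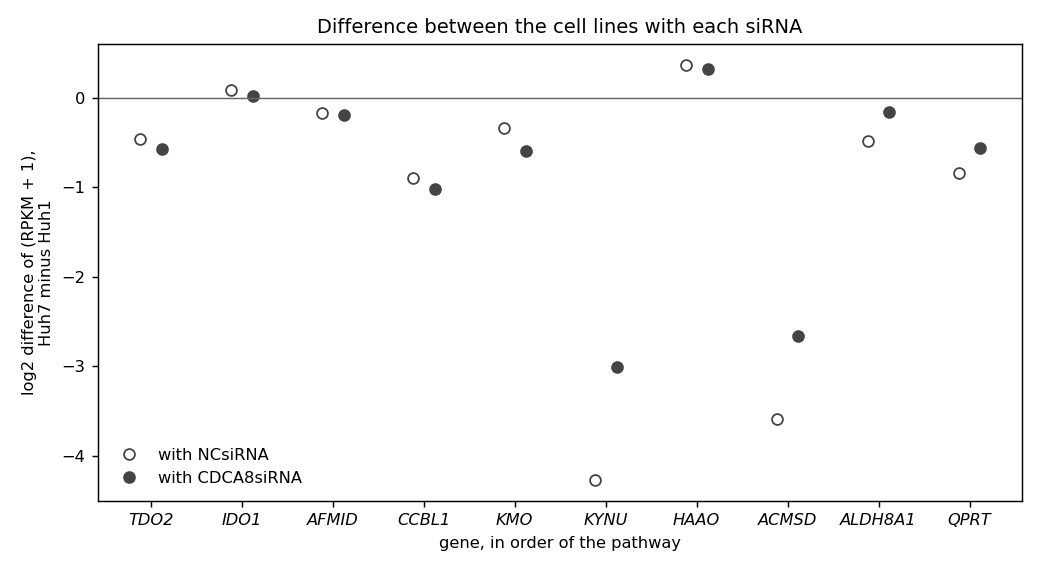
Difference of log2(RPKM + 1), Huh7 minus Huh1, for each member with NCsiRNA (open) and with CDCA8siRNA (filled), from 1 library per line and siRNA. KYNU lies at -4.27 and -3.01 and ACMSD at -3.59 and -2.66, and HAAO and IDO1 are the only members above 0.

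Genes that feed, drain or control the pathway were examined as 11 lists drawn up by function, with earlier results of these data known. Of their 50 genes that could be fitted, 1 rose and 4 fell with CDCA8siRNA (limma, adjusted p under 0.05), next to 6.03% and 4.21% of all genes. CYP1B1, a target of the aryl hydrocarbon receptor that kynurenine can activate, rose in Huh1 from 13.5 to 19.4 RPKM and in Huh7 from 1.53 to 4.35 (log2 difference 0.79, standard error 0.149, adjusted p = 0.0139 from limma). The receptor gene AHR differed by 0.10 and the target CYP1A1 by -0.19, neither past the test, so that 1 of the 6 fitted genes of that list rose and 0 fell. WARS2, the mitochondrial tryptophanyl-tRNA synthetase, fell in Huh1 from 5.17 to 2.94 RPKM and in Huh7 from 8.24 to 4.31 (adjusted p = 0.00922 from limma), whereas its cytosolic counterpart WARS differed by -0.15 (adjusted p = 0.396 from limma). SLC43A1, a carrier of large neutral amino acids, fell in Huh1 from 24.7 to 17.9 RPKM and in Huh7 from 35.0 to 25.0 (adjusted p = 0.0195 from limma), and it was the only 1 of 5 fitted transporters that passed. NNMT, which methylates nicotinamide, fell in Huh1 from 2.13 to 1.20 RPKM and in Huh7 from 10.8 to 5.84 (adjusted p = 0.0188 from limma). FAH, the last enzyme of tyrosine breakdown, also fell in Huh1 from 32.8 to 23.3 RPKM and in Huh7 from 18.8 to 14.3 (adjusted p = 0.0282 from limma), 1 of 5 fitted genes of phenylalanine, tyrosine and histidine breakdown.

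In the remaining lists, 0 genes passed limma in either direction. For NAD synthesis, 6 genes were fitted with a median log2 difference of 0.02. For the 7 fitted genes of the glutarate branch, which lies further along the route than ALDH8A1, the median was 0.04. The 3 fitted genes of the serotonin branch had a median of 0.01, the 4 genes of cofactor supply -0.08, the 7 regulators of IDO1 and TDO2 -0.08, and the 2 other kynurenine enzymes, AADAT and GOT2, -0.04. Among these, the glucocorticoid receptor gene NR3C1 differed by 0.29 (adjusted p = 0.101 from limma). At an unadjusted level a share of 26.0% of all genes passed, and no list was tested as a whole.

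Between the cell lines, 24 of the 56 fitted genes of these lists were lower in Huh7 and 19 higher (limma, adjusted p under 0.05), beside 28.7% and 42.5% of all genes. Of these calls 5 were fixed by the filter, since HPD and TAT reached 1 RPKM in Huh1 only and CD38, SLC16A10 and JAK2 in Huh7 only. DDC, which makes serotonin from hydroxytryptophan, was at 128 and 126 RPKM in Huh1 and at 4.61 and 7.30 RPKM in Huh7 (adjusted p = 3.26e-08 from limma). NAMPT, which salvages nicotinamide for NAD, was at 147 and 158 RPKM in Huh1 and at 23.5 and 23.1 RPKM in Huh7 (adjusted p = 3.58e-08 from limma). Other genes of NAD synthesis were higher in Huh7 (adjusted p = 9.51e-05 for NMNAT1 and 3.91e-05 for NAPRT1 from limma). NMNAT1, which makes NAD from its mononucleotide, was at 1.93 and 2.14 RPKM in Huh1 and 4.91 and 5.91 RPKM in Huh7, and NAPRT1, which uses nicotinic acid, was at 9.30 and 8.14 RPKM in Huh1 and 18.6 and 19.9 RPKM in Huh7, so that 2 of the 6 fitted genes of NAD synthesis were higher and 2 lower. HPD, of tyrosine breakdown, was at 266 and 227 RPKM in Huh1 and at 0.346 and 0.859 RPKM in Huh7. In its list 6 of the 7 fitted genes were lower in Huh7, HPD and TAT among them. Hepatocyte markers were lower in Huh7 for 6 of 9 and higher for 3 of 9, AFP (24.8 and 27.5 RPKM in Huh1, 865 and 715 RPKM in Huh7) among the latter. Of the 6 leukocyte and macrophage markers, which would accompany cells known for IDO1, KMO and KYNU, 5 were under 1 RPKM in every library, PTPRC at 0 to 0.417 RPKM. The exception, LYZ, went in Huh1 from 0.855 to 1.67 RPKM and in Huh7 from 11.1 to 23.4. It passed the filter in Huh1 only through the CDCA8siRNA library, which fixed its direction there, so no p-value is given. The list summed to 1.91 and 3.16 RPKM in Huh1 and 11.5 and 24.3 RPKM in Huh7. The endothelial and stellate list was under 1 RPKM in 4 of 5 genes, CDH5 being listed at 0, with COL1A1 at 107 and 125 RPKM in Huh7. Of the cholangiocyte markers, KRT19 and SOX9 were higher in Huh7, and KRT7 was at 84.4 and 81.7 RPKM in Huh1 and under 1 RPKM in Huh7. The part of any of these in the values of the members was not tested.

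**Figure D4:**
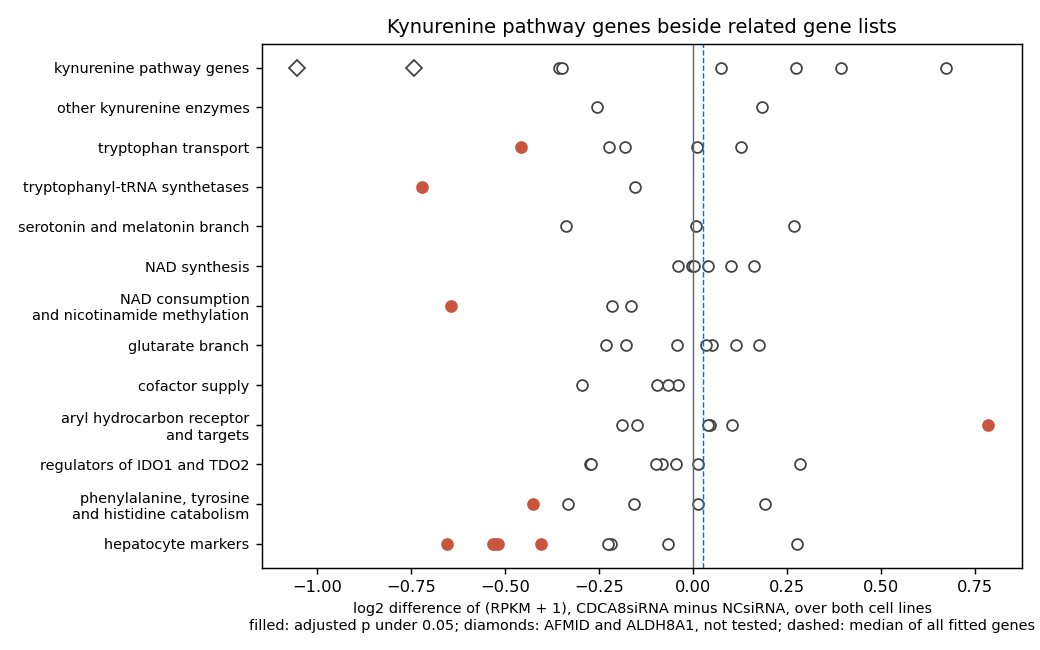
Difference of log2(RPKM + 1), CDCA8siRNA minus NCsiRNA over both cell lines, with 1 point per fitted gene, for the members, the 11 related lists and the hepatocyte markers. Filled points passed limma at an adjusted p under 0.05, diamonds are AFMID and ALDH8A1, for which no test is given, and the dashed line is the median of all genes at 0.03.

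Finally, the genes with the pattern closest to AFMID and ALDH8A1 over the 4 libraries were listed, by the Euclidean distance of mean-centred log2(RPKM + 1) values among 10356 genes. For AFMID these were SLC45A3, PSMG1, ADA, DCP1A and SRPK2, at distances of 0.0954 to 0.182. SLC45A3, the closest, was at 1.63 and 0.717 RPKM in Huh1 and at 1.43 and 0.506 RPKM in Huh7. At such low values the pseudocount of 1 RPKM shrinks the change, so its closeness holds on this scale only. PSMG1, a proteasome assembly chaperone, was at 56.4 and 37.6 RPKM in Huh1 and at 53.5 and 32.6 RPKM in Huh7. ADA, adenosine deaminase, was at 7.95 and 5.10 RPKM in Huh1 and at 7.68 and 3.83 RPKM in Huh7. For ALDH8A1 the closest were SERPINF2, TMEM144, RMND5A, CEBPA and ORM2, at distances of 0.136 to 0.339. TMEM144 was likewise low, at 2.23 and 0.687 RPKM in Huh1 and at 1.76 and 0.472 RPKM in Huh7. CEBPA, a transcription factor of the hepatocyte lineage, was at 94.4 and 47.2 RPKM in Huh1 and at 68.9 and 30.3 RPKM in Huh7, and SERPINF2, the plasma inhibitor of plasmin, was at 67.6 and 32.2 RPKM in Huh1 and at 54.0 and 27.3 RPKM in Huh7. ORM2 encodes an acute phase plasma protein. With 4 libraries per gene these distances are descriptions only.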

How the data were processed

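Libraries were made with the Illumina TruSeq RNA kit per the labels, 1 for each cell line and siRNA. The submitters' processing notes name CASAVA 1.8.2, TopHat2 2.0.9 and hg19. The counter, annotation and filters are not given in the sources used here. The authors deposited RPKM values for 18398 RefSeq rows per library. The unit was deduced from the values multiplied by transcript length (GENCODE release 29, 17768 rows matched on the RefSeq identifier, 443 more on the symbol). Part of the low values then lie at whole multiples of 1 constant per library, which gives the depth. Of values under about 20 reads, 31.1% to 33.7% per library lay within 0.05 of a whole number. Reads per gene were approximated from the depth and used for counting SDs only, which hold no variation between cultures. Where the authors' length differed, these numbers are off.

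Differences were taken on log2(RPKM + 1). Genes needed at least 1 RPKM in 1 library of each line (siRNA comparison, 10357 genes) or in any library (cell line comparison). limma 3.58.1 in R 4.3.3 (lmFit, eBayes with trend) was fitted to all 4 libraries with both factors, leaving 1 residual degree of freedom, two-sided with Benjamini-Hochberg adjustment over all genes. On simulated libraries (10256 genes, 200 changed), limma called 100% of genes changed by 1 on the log2 scale and 9 of 10056 unchanged genes. The simulation gave every gene the same small random spread and both lines the same change, in well-expressed genes only. Its rates are therefore not those of the real libraries, in which spread and response vary. The members and lists were chosen with earlier results of these data known. All members were named, with up to 4 genes per list among those past limma in either comparison, markers as lists, the divergent neighbours, and the 5 nearest patterns per chosen gene. Python 3.11.15 did the rest. Alternatives were another pseudocount, other filters, quantile and upper quartile scaling, and limma without the second factor or the trend.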

Additional observations from a re-analysis of the deposited data

Results flagged for a closer look

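QPRT and ACMSD had differences of opposite sign in the pair of cell lines, from single libraries, and whether the lines differ was not tested. The log2 difference of QPRT was -0.066 in Huh1 and 0.21 in Huh7, and these were 4.24 times the counting SD of their difference apart. That of ACMSD was -0.67 in Huh1 and 0.26 in Huh7, 3.46 times the counting SD apart, with about 5 and 10 reads behind the Huh7 values.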

How the results depend on the processing

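Leaving out a replicate was not possible with single libraries. The cell line served as the block of the siRNA comparison. With no replicate block, 0 genes were called higher and 0 lower with CDCA8siRNA, against 625 and 436 with it, and 89 genes had an unadjusted p-value under 0.05. Without a filter on low values the siRNA counts were also 0 and 0, with 2440 genes at an unadjusted p-value under 0.05. Without the trend 267 genes were lower, and with quantile normalization 755. Within Huh1, the counts at 2-fold were 35 higher and 19 lower. They became 107 and 57 with a pseudocount of 0.1 RPKM, and 22 and 20 with quantile normalization, which moved the share of higher calls from 64.8% to 52.4%. Within Huh7, the counts of 101 and 81 became 269 and 153 with a pseudocount of 0.1 RPKM. Of 240 values of the members and TK1 under an alternative, 222 kept their direction and their side of the threshold or stayed within their error, 6 moved by more than that error, 6 lost a call, 6 gained a call and 0 reversed. For the siRNA comparison of AFMID and ALDH8A1, and for values within a line, only the log2 difference was followed. Other filters, the block and the trend leave that difference as it is, so part of the 222 could not change. Genes under about 20 reads, IDO1, TDO2 in Huh7 and ACMSD in Huh7, are limited by depth.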
